A study of Homo sapiens with 4 samples.

Results

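Glutathione transferases were followed in Huh7 cells, an established human hepatocellular carcinoma line, with and without a short hairpin RNA against NUP210, a membrane glycoprotein of the nuclear pore complex. The 10 genes described are GSTA1, GSTA2, GSTA4, GSTP1, GSTK1, GSTO1, GSTZ1, MGST1, MGST2 and MGST3, found by their symbols among 20226 listed genes. They were selected on their family membership with the TPM of this same contrast already in view, so their differences between the groups are given as description. The groups are shNUP210 (2 libraries) and shCon (2 libraries). The titles name shCon as a control hairpin, while its genotype is labelled wild type, and every library is labelled untreated. The labels leave unsaid whether replicates are separate cultures and whether the cells are a clone or a pool.

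Glutathione transferases join the tripeptide glutathione to reactive, electrophilic compounds, which makes these more soluble and ready for export. The cytosolic enzymes work as dimers and fall into classes named by Greek letters. The kappa enzyme lies in mitochondria and peroxisomes, and the microsomal enzymes (MGST) are integral membrane proteins of an unrelated fold. In the liver, alpha-class enzymes are abundant in hepatocytes, whereas the pi-class enzyme GSTP1 is typically low in normal hepatocytes and high in bile duct cells and many tumours.

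NUP210 itself was at 10.1 and 9.85 TPM (an expression unit scaled by transcript length and library total) in the shNUP210 libraries and 32.8 and 27.3 TPM in the shCon libraries. Between 13675 and 14564 genes reached 1 TPM per library. All 9 hepatocyte markers examined were present, with sums of 15000 and 15220 TPM after knockdown and 19770 and 19290 TPM in controls. The lower sums follow APOA1, SERPINA1 and TF. On the log2(TPM + 1) scale the median difference of the 9 markers was 0.01. Of markers of other cells, PTPRC (leukocytes), KRT7 (bile duct), DCN (fibroblasts) and the 4 endothelial markers are not analysed here.

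GSTA1 and GSTA2 carry the largest differences of the 10 genes and share nearly the same sequence upstream of their starts. For that reason these sequences are shown first, with that of GSTP1, the most abundant member, for contrast. Each run covers the 250 bases before the RefSeq start on GRCh38.p14, read 5′ to 3′ along the gene's strand. GSTA1 lies at chr6:52803817-52804066 (minus strand), GSTA2 at chr6:52763476-52763725 (minus strand) and GSTP1 at chr11:67583562-67583811 (plus strand). Capitals mark matches to 3 short motifs on either strand. TTGCNNAA is a loose pattern for C/EBP half-sites, called the C/EBP motif below. TGANNNNGC is the core of the antioxidant response element used by NRF2, and TATAAA are the TATA box letters.
GSTA1: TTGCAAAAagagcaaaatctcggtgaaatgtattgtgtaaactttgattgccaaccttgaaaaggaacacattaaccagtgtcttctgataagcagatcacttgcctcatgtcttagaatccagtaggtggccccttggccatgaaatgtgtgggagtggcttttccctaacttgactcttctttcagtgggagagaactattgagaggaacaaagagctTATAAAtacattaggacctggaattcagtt
GSTA2: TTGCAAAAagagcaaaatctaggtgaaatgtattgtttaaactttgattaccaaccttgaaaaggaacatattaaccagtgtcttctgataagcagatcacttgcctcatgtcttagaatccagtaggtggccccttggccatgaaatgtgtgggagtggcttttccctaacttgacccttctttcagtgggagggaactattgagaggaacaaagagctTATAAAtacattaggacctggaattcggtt
GSTP1: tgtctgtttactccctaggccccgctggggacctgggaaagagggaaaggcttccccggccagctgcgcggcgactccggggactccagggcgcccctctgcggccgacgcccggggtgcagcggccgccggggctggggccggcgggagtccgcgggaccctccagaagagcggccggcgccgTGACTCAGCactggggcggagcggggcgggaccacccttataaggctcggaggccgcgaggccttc

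GSTA1 and GSTA2 were identical at 243 of these 250 positions (97.2%), and each held the C/EBP motif and the TATA box at the same distance from the start. The C/EBP match sits at the far edge of the window, 250 bases upstream. Of the 3 motifs GSTP1 held only the antioxidant response core, 66 bases upstream, with no overlap between motifs in any of the 3 runs. The search takes exact letters, so the near match TATAAG close to the end of the GSTP1 run is not counted. The upstream runs also differed in CpG dinucleotides, with 1 each in GSTA1 and GSTA2 and 28 in GSTP1, against a median of 11 over 35116 RefSeq promoters. The motifs were chosen after the sequences had been seen, and a match describes letters, not binding. The C/EBP motif occurs in 9.05% of all promoters, the TATA box in 10.7% and the antioxidant core in 35.2%. Of the 9 members in the promoter table (all but MGST2), the C/EBP motif was also in GSTK1. The antioxidant core was in GSTA4, GSTK1, GSTO1, GSTP1 and MGST3. The TATA box letters were also in GSTO1 and in MGST1, though not in every MGST1 promoter. They began 216 and 197 bases upstream there, against 30 bases in GSTA1 and GSTA2.

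In control cells the levels of the 10 genes ran from 3.77 to 2544 TPM. GSTP1 stood far above the rest with a mean of 2544 ± 212 TPM (SD, n = 2, as for all means below). It was followed by GSTK1 (123.3 ± 25.2 TPM), GSTO1 (93.9 ± 4.2 TPM) and MGST1 (80.4 ± 1.8 TPM). MGST3 (45.0 ± 4.1 TPM) and GSTA1 (43.0 ± 2.5 TPM) overlapped in their libraries, as did GSTA4 (14.25 ± 1.42 TPM) and GSTZ1 (11.6 ± 5.3 TPM). MGST2 lay between these pairs at 28.4 ± 13.5 TPM and GSTA2 was lowest at 3.77 ± 0.98 TPM. After knockdown the first 5 genes kept this order, while GSTA1 moved from rank 6 to rank 9, below GSTZ1 and above GSTA2. With 2 libraries a group, neighbours whose libraries do not overlap may still differ by no more than unseen replicate spread.

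**Figure D1:**
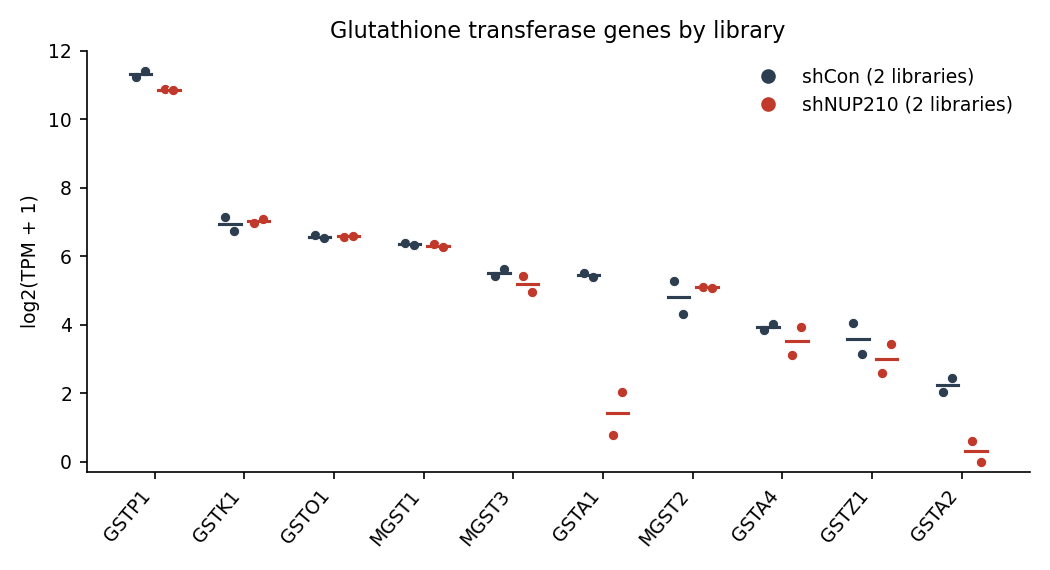
Level of each of the 10 genes in every library, as log2(TPM + 1), ordered by the shCon mean; points are single libraries and bars are group means. The shNUP210 points of GSTA1 and GSTA2 lie far below their shCon points, those of GSTP1 lie slightly below, and those of the other 7 genes overlap.

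The alpha-class genes GSTA1 and GSTA2 were nearly absent after NUP210 knockdown. GSTA1 (ENSG00000243955, chromosome 6, 52791664 to 52803910, minus strand, GRCh38), encoding a hepatocyte enzyme that also binds bilirubin and isomerises steroids, was at 44.7 and 41.2 TPM in shCon. It was at 0.72 and 3.10 TPM in shNUP210. Both knockdown libraries thus lay far below both controls, and the knockdown mean was 0.0444 of the control mean. The difference on the log2(TPM + 1) scale was -4.05 (SE 0.47), the third lowest of 10140 tested genes. Among 3460 tested genes with a control mean of 20 to 100 TPM, whose median difference was 0.18, 3 were as low as GSTA1, itself included. These are the same 3 genes as the lowest of all tested genes. GSTA1 was chosen with this contrast in view, so both ranks are description only.

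GSTA2 (ENSG00000244067, 52750089 to 52763569, minus strand), encoding a near twin of the GSTA1 enzyme, was at 3.08 and 4.46 TPM in shCon. In shNUP210 it was at 0.52 TPM in one library and listed at 0 in the other. Its libraries do not overlap between groups either, but it did not reach 5 TPM anywhere, so it was not tested. These low values rest on very few reads. At an approximate worth of 0.54 to 0.68 TPM per fragment on a 1 kb transcript, GSTA1 had about 85 and 77.3 fragments in shCon and about 1.2 and 4.6 in shNUP210. GSTA2 had about 7.5 and 10.8 against about 1.1 and 0.

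Reads of this gene pair are hard to tell apart. Over their aligned length the GSTA1 transcript ENST00000334575 and the GSTA2 transcript ENST00000493422 were identical at 972 positions and differed at 47 (95.4% identity), so the authors' counting may have shared reads between them. Summed over both genes, the TPM were 47.8 and 45.6 in shCon and 1.24 and 3.10 in shNUP210. The sum, which does not depend on which of the pair a read was given to apart from their lengths, shows the same separation.

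GSTA4 (52977948 to 52995378, minus strand), the alpha-class enzyme specialised for the lipid peroxidation product 4-hydroxynonenal, belongs to the same gene cluster. It was at 7.57 and 14.3 TPM in shNUP210 and 13.2 and 15.2 TPM in shCon. The groups overlapped, and the log2 difference of -0.41 (SE 0.36) became 0.005 without shNUP210 replicate 1. GSTA4 starts 191.5 kb from GSTA1, with GSTA2 40.3 kb away on the other side. GSTA3 and GSTA5, which lie between GSTA1 and GSTA4, are not analysed here.

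Flanking protein-coding genes showed no difference of the size seen for GSTA1. TMEM14A, 132.8 kb from the GSTA1 start, was at 41.6 and 49.0 TPM in shNUP210 and 42.6 and 51.6 TPM in shCon. FBXO9, 248.1 kb away on the other side and encoding an F-box protein, was at 23.9 and 25.7 against 23.8 and 42.0 TPM, and TRAM2, 227 kb away, at 7.87 and 9.22 against 6.40 and 5.30 TPM. None of these passed the test (limma adjusted p 0.89, 0.52 and 0.43). The small RNA gene RN7SK next to GSTA4, so named in the deposited tables (ENSG00000202198, RF00100 in GENCODE 29), was listed at 0 and 7.84 TPM in shNUP210 and at 19.0 and 47.0 TPM in shCon. Its log2 difference was -3.38 (SE 1.05), with both knockdown libraries below both controls. It did not pass either (limma adjusted p = 0.138), and as a short RNA its level in these libraries is uncertain.

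**Figure D2:**
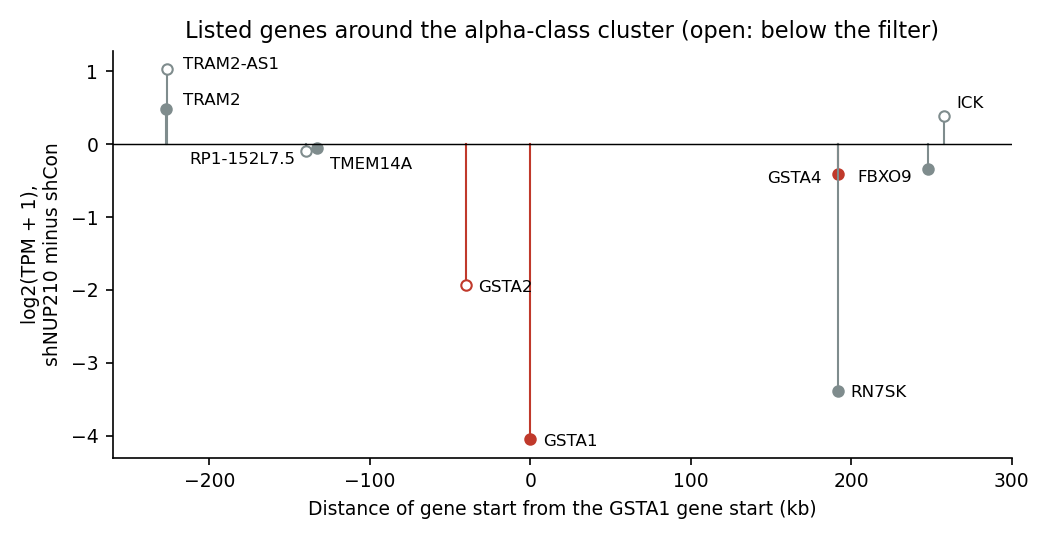
Difference in log2(TPM + 1), shNUP210 minus shCon, of each listed gene around the alpha-class cluster against the distance of its start from that of GSTA1 in kb. Red points are the alpha-class genes and open points did not reach 5 TPM in 2 libraries. TMEM14A and FBXO9 on either side are at -0.05 and -0.34, while GSTA1 is at -4.05. RN7SK, next to GSTA4, is at -3.38 and GSTA2 at -1.94.

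GSTP1 (ENSG00000084207, chromosome 11, 67583595 to 67586656, plus strand), the pi-class enzyme that also binds the stress kinase JNK, was lower by a smaller factor. It was at 1869 and 1856 TPM in shNUP210 and 2395 and 2694 TPM in shCon. The knockdown libraries nearly coincided and lay below both controls, at 0.732 of the control mean, with a log2 difference of -0.45 (SE 0.08). The 20 listed glutathione transferase and related membrane-enzyme genes summed to 2372 and 2386 TPM in shNUP210 and 2958 and 3184 TPM in shCon. GSTP1 made up 78.8 and 77.8% of that sum after knockdown and 81.0 and 84.6% in controls. Without GSTP1 the sums overlapped, at 503.0 and 530.1 against 563.3 and 490.0 TPM. Within that remainder GSTA1 went from 7.94 and 8.41% in the controls to 0.143 and 0.585%.

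The other cytosolic and mitochondrial enzymes overlapped between the groups. GSTK1 (chromosome 7), the kappa enzyme, was at 124.5 and 134.4 TPM in shNUP210 and 141.1 and 105.5 TPM in shCon. GSTO1 (chromosome 10), an omega enzyme that reduces dehydroascorbate, was at 93.9 and 94.9 against 96.9 and 90.9 TPM. GSTZ1 (chromosome 14), the zeta enzyme that isomerises maleylacetoacetate in tyrosine breakdown, was at 4.97 and 9.81 against 15.4 and 7.86 TPM. GSTK1 and GSTO1 had log2 differences of 0.08 (SE 0.17) and 0.01 (SE 0.13). These turned to -0.15 and -0.22 after trimmed-mean scaling of the libraries. GSTZ1 had -0.58 (SE 0.47), with replicates as far apart as the groups, and ranged from -0.14 to -1.03 with 1 library left out.

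The microsomal enzymes also overlapped. MGST1 (chromosome 12), an abundant membrane transferase and peroxidase of liver, was at 80.8 and 75.5 TPM in shNUP210 and 81.7 and 79.2 TPM in shCon. Its log2 difference was -0.04 (SE 0.14) and became -0.27 after trimmed-mean scaling. MGST2 (chromosome 4), which can make leukotriene C4, was at 33.5 and 32.8 against 37.9 and 18.8 TPM. Its log2 difference of 0.30 (SE 0.34) became 0.79 without shCon replicate 1 and -0.19 without shCon replicate 2. MGST2 shares 252 exon bases with MAML3, and no source used here says that counting used strand. MGST3 (chromosome 1), a related membrane enzyme, was at 42.2 and 30.2 against 42.1 and 47.9 TPM, a log2 difference of -0.32 (SE 0.22). That difference became -0.09 without shNUP210 replicate 2 and -0.56 without shNUP210 replicate 1. In this subgroup MGST1 was the most even over the 4 libraries, and the MGST2 control libraries were the furthest apart.

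Of the 10 genes, 9 had at least 5 TPM in 2 libraries and so entered the limma fit over all genes. GSTA1 and GSTP1 were past an adjusted p of 0.05, both lower, the latter with 0.0496. All genes passed at a rate of 2.86% (290 of 10140), of which 1.07% were lower and 1.79% higher. Both knockdown libraries lay below both controls for GSTA1 and GSTP1 among the tested genes (14.3% of all tested genes) and above them for 0 of 9 (42.9% of all tested genes). The members were chosen from this contrast, so nothing is read from these counts. The median log2 difference of all tested genes was 0.23, and it was 0.02 after trimmed-mean scaling. GSTA1 was not past the threshold when genes were not filtered or kept from 1 TPM, without the mean-variance trend or without either shCon library. GSTP1 was past it, besides the reported setting, only after trimmed-mean scaling.

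**Figure D3:**
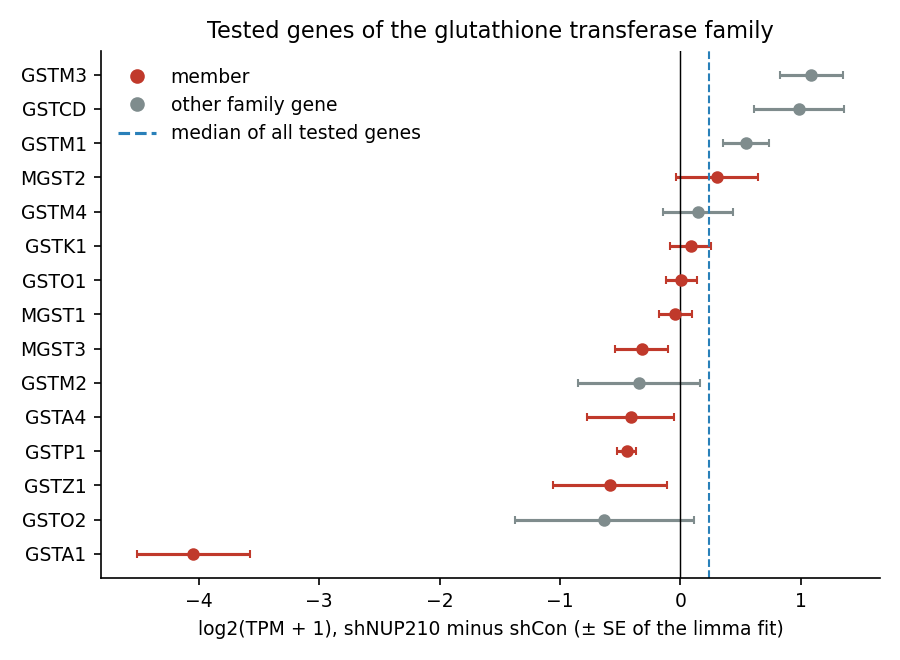
Difference in log2(TPM + 1), shNUP210 minus shCon, with the SE of the limma fit, for the 15 tested genes of the family; the dashed line is the median of all tested genes. GSTA1 stands alone at -4.05, and the mu-class gene GSTM3 is at the other end at 1.09.

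Genes of the family outside the 10 were not called. Of 17 such genes fixed as a list, 10 were listed and 6 tested, and 0 were called by limma in either direction, with 3 at an unadjusted p under 0.05, all higher. Over all tested genes 24.3% had an unadjusted p under 0.05 by limma, 18.4% higher and 5.95% lower, against which the counts at this threshold here and in the lists below are to be read. GSTM3, a mu-class enzyme, was at 32.5 and 44.7 TPM in shNUP210 and 20 and 15.1 TPM in shCon (limma adjusted p = 0.0873). GSTM1, another mu-class enzyme, was at 45.0 and 52.6 against 30.6 and 35.7 TPM (adjusted p = 0.162). GSTM4 overlapped, at 14.3 and 17.8 against 17.1 and 11.9 TPM. GSTCD, named after its values were seen, was at 7.60 and 10.5 against 4.27 and 3.79 TPM (adjusted p = 0.190). Mu-class genes are close paralogs, so their separate levels depend on how reads were shared. The list's median log2 difference was 0.34, beside 0.23 for all tested genes.

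Genes that make, recycle or break down glutathione were not called. Of 22 on the list, 16 were tested and 0 passed by limma, with 4 at an unadjusted p under 0.05, 2 higher and 2 lower, a share near the 24.3% of all tested genes. CBS, which opens the route from homocysteine to cysteine, was at 94.4 and 88.9 TPM in shNUP210 and 145.4 and 151.7 TPM in shCon, with an adjusted p of 0.0501. It was past the threshold after trimmed-mean scaling. SLC3A2, the heavy chain of the cystine carrier, was at 197.4 and 301.9 against 281.8 and 296.2 TPM, and PGD, a source of NADPH, at 201.3 and 226.7 against 267.9 and 216.2 TPM. Both overlapped between the groups. The median log2 difference was 0.03.

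Other enzymes that use glutathione were not called either, with 0 of 17 past the limma threshold and 3 at an unadjusted p under 0.05, 2 higher and 1 lower, no more than the share of all tested genes. The most abundant were peroxidases. GPX4, which reduces lipid hydroperoxides in membranes, was at 1485 and 1372 TPM in shNUP210 and 1490 and 1624 TPM in shCon, and GPX1 was at 250.5 and 253.3 against 260.9 and 280.4 TPM. PTGES2, a glutathione-binding prostaglandin synthase, was at 122.3 and 133.8 against 138.2 and 137.3 TPM. Their limma adjusted p-values were 0.38, 0.55 and 0.61, and the list's median difference was -0.09.

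Genes that export glutathione conjugates or turn them into mercapturates had 0 of 10 tested members called by limma out of 13 on the list. At an unadjusted p under 0.05 there were 3 of 10, all lower, where all tested genes gave 24.3% in either direction and 5.95% lower. With so few genes nothing is read from this count. ACY1, an aminoacylase, was at 36.3 and 46.5 TPM in shNUP210 and 70.3 and 67.3 TPM in shCon (adjusted p = 0.0934). ACY3, its relative that acts on mercapturates, was at 22.9 and 30.6 against 48.0 and 37.6 TPM (adjusted p = 0.167). NAT8, the acetyltransferase that completes mercapturates, was named after its values were seen and was at 9.49 and 6.85 against 21.4 and 17.0 TPM (adjusted p = 0.101). The transporter gene ABCC6 was at 37.1 and 29.1 against 37.8 and 29.4 TPM, with the groups overlapping. The list's median difference was -0.002.

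Among transcription factors known to act at promoters of this family, 2 of 17 tested fell and 0 rose, where 1.07% of all tested genes fell and 1.79% rose. At an unadjusted p under 0.05 there were 6, 3 higher (NFE2L2, NR1I3 and FOXA2) and 3 lower (CEBPA, CEBPB and FOXA3). Both knockdown libraries lay above both controls for 10 factors and below them for 5, beside 42.9% and 14.3% of all tested genes. CEBPA, a C/EBP factor that drives hepatocyte genes, was at 346.4 and 331.3 TPM in shNUP210 and 528.4 and 514.9 TPM in shCon (log2 difference -0.62, limma adjusted p = 0.0334). CEBPB, a C/EBP factor of the acute phase, was at 96.1 and 100.1 against 184.5 and 162.7 TPM (log2 difference -0.81, adjusted p = 0.0421). Both fell below every control library. Both lost the call with no filter, a filter of 1 TPM, no trend, the replicate number as a block or any library left out (adjusted p 0.0606 to 0.162). Both were known to be lower before the list was written, so their place on it is no independent support.

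The other factors did not pass the test. NFE2L2, encoding NRF2 and named after its values were seen, was at 79.6 and 65.4 against 36.3 and 42.5 TPM (adjusted p = 0.0721), above both controls. HNF4A, RXRA and FOXA2, the most abundant of the rest, had log2 differences of 0.30, 0.18 and 0.37, with adjusted p-values of 0.24, 0.43 and 0.19. FOXA3 and NR1I3 were also named after their values were seen. NR1I3 was at 40.1 and 35.1 TPM in shNUP210 and 21.5 and 14.6 TPM in shCon (limma adjusted p = 0.0903), above both controls. FOXA3 was at 44.1 and 46.7 against 73.7 and 72.0 TPM (adjusted p = 0.0749) and, like CBS, passed after trimmed-mean scaling. The median over the list was 0.21, near that of all tested genes.

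**Figure D4:**
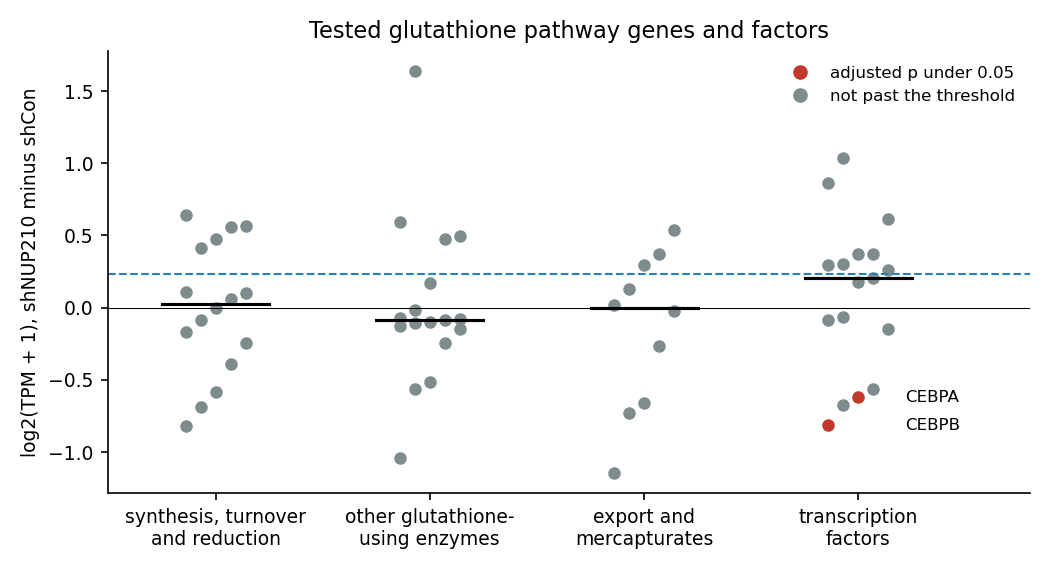
Difference in log2(TPM + 1), shNUP210 minus shCon, of each tested gene in 4 lists; black bars are list medians and the dashed line is the median of all tested genes. The genes past the adjusted threshold are CEBPA and CEBPB, at -0.62 and -0.81.

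Among the tested markers of other cell types, only LYZ (lower) and KRT19 (higher) were called. The leukocyte list had 3 of 4 genes listed, with sums of 48.1 and 25.8 TPM in shNUP210 and 165.8 and 151.9 TPM in shCon. LYZ, encoding lysozyme, fell from 130.5 and 124.5 to 26.9 and 19.5 TPM (limma adjusted p = 0.0098) and made up most of that sum. CD68 was at 13.85 and 2.48 TPM in shNUP210 and 30.66 and 17.85 TPM in shCon, without passing (limma adjusted p = 0.20). CD14 overlapped, at 7.41 and 3.82 against 4.58 and 9.56 TPM. The bile duct list had 3 of 4, with sums of 271.3 and 242.6 against 164.4 and 142.7 TPM. KRT19, a bile duct keratin, rose from 75.0 and 58.1 to 192.3 and 182.4 TPM (adjusted p = 0.0215). EPCAM, another marker of that list, was at 19.2 and 16.9 TPM in shNUP210 and 32.9 and 32.5 TPM in shCon (adjusted p = 0.0917), below both controls. SOX9 overlapped, at 59.8 and 43.3 against 56.5 and 52.1 TPM. The sum of the list thus follows KRT19. The fibroblast list had 5 of 6 listed, with sums of 36.8 and 19.5 against 11.9 and 16.5 TPM. No listed marker was at 0 in all libraries. Of the hepatocyte markers, 3 of 9 fell (APOA1, SERPINA1 and TF) and 0 rose, where 1.07% of all tested genes fell. TTR, AFP and HNF4A lay above both controls without passing. Among them TTR was at 396.9 and 438.3 TPM in shNUP210 and 288.4 and 275.0 TPM in shCon (adjusted p = 0.0501). All libraries are labelled as the Huh7 line, so these markers are given as expression levels and not as numbers of other cells. The part of these changes in the GSTA1 difference was not tested. In bulk RNA, fewer cells expressing a gene and less of its RNA per cell cannot be told apart.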

How the data were processed

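Total RNA of 4 Huh7 samples was sequenced after an Illumina TruSeq preparation, per the labels' protocols. The authors deposited 1 table per library in TPM, a unit read from column totals of 999992.7 to 999997.8. Trimmomatic, STAR, RSEM and DESeq with hg38 were used, per the submitters' processing notes, with no versions. TPM keep no read depth. Per library, the worth of 1 fragment was estimated from low values of single-transcript genes and is approximate. Nothing says that replicates are separate cultures, so p-values may measure technical spread only.

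limma 3.58.1 (R 4.3.3) was fitted to log2(TPM + 1) of 10140 genes with at least 5 TPM in 2 libraries, with a mean-variance trend. P-values are two-sided. Benjamini-Hochberg adjustment covered every tested gene, and genes under an adjusted p of 0.05 are called. The log scale understates differences of low genes. The fit was also run on simulated data. Their noise was drawn from a smooth mean-variance trend, so that run cannot say whether the trend holds for these libraries. The 10 genes and all lists were chosen with earlier results of these data known. Named are the 10 genes, NUP210, called list genes, the 3 further genes of highest mean TPM per list, and neighbours within 200 kb of the alpha-class cluster reaching the filter. Cell type markers and the genes marked as named after their values were seen are named besides these. One listed factor is not reported here. List genes were matched by symbol or by gene identifier. Positions and transcripts are GENCODE 29 (GRCh38) and upstream sequences are RefSeq GRCh38.p14.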

Additional observations from a re-analysis of the deposited data

How the results depend on the processing

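The number of genes called was 290 and became 15 when genes were not filtered, 57 when kept from 1 TPM, 0 when the variance trend was dropped (2290 at an unadjusted p under 0.05 by limma) and 63 with the replicate number as a block. It ranged from 4 to 27 with 1 library left out. After trimmed-mean scaling it was 316 (80 higher, 236 lower, against 181 and 109), and with a pseudocount of 0.1 it was 209. Where 2.86% of all tested genes were called, 2 of the listed pathway genes were (6, 16, 17, 10 and 17 tested per list). The count became 4 after trimmed-mean scaling and 0 with either other filter, without the trend, with the replicate block and in each fit without a single library. At an unadjusted p under 0.05 by limma there were 14 to 20 listed genes in the settings that keep all 4 libraries. Over all tested genes these settings gave 2133 to 2469 of 10140 with the reported filter. They gave 2977 of 20221 unfiltered and 2952 of 14576 when kept from 1 TPM. Nothing is read from these list counts. Beside 2.86% of all tested genes, 2 of the 10 members (9 tested) were past the threshold. That became 1 with a pseudocount of 0.1 and with the replicate block, 0 with either other filter and without the trend, and 0 to 1 without a single library. It was 0 without shCon replicate 1 or 2. The GSTA1 log2 difference ranged from -3.42 to -4.73 over all settings, and the lowest is that of the smaller pseudocount. Same-numbered libraries did not deviate together (correlation 0.023 over 10140 genes), so the numbers are not taken as pairs. Depth limits GSTA1 and GSTA2 after knockdown, which rest on about 0 to 4.6 fragments a library.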
